A study of Arabidopsis with 12 samples.

Results

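*PYR1* and *PYL1* to *PYL9* encode soluble receptors of abscisic acid (ABA), the hormone of drought and seed responses. They were taken by their gene identifiers from the deposited expression table, in which all 10 were found among 33559 genes. *Arabidopsis* has 14 receptor genes of this kind, and *PYL10* to *PYL13* are described further on for context. A receptor that has bound ABA docks onto clade A protein phosphatases 2C (PP2Cs) and blocks their active site. The SnRK2 kinases that these phosphatases hold inactive are then released, and they phosphorylate ABF transcription factors and ion channels. By sequence the receptors form subfamily III (*PYR1*, *PYL1*, *PYL2* and *PYL3*), whose proteins mostly pair up when ABA is absent, and subfamilies II (*PYL4*, *PYL5*, *PYL6*) and I (*PYL7*, *PYL8*, *PYL9*), whose proteins are mostly single molecules.

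Whole seedlings, 14 days old, were grown on MS medium with sucrose. The 4 groups of 3 libraries each were *aph-1* with ABA (50 μM, 6 h), the Col-0 wild type with the same ABA treatment, *aph-1* without treatment and the wild type without treatment. The *aph-1* plants are a single T-DNA line (Salk_120974), labelled KO in the table, with the insertion in the promoter of the tyrosine phosphatase gene *APH* (AT3G44620). *APH* was at 86.9 FPKM in ABA-treated *aph-1*, against 99.0 FPKM in the ABA-treated wild type. Without ABA it was at 83.6 FPKM in *aph-1*, against 95.9 FPKM in the wild type. This level of the whole gene does not check the genotype, because the study describes a transcript that joins the T-DNA to *APH*.

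Each gene has 1 FPKM value per group, an abundance per gene length and sequencing depth. Values per library were not used here, so neither a spread between libraries nor a test can be given for any difference, and the depth is unknown. Folds are plain ratios of the deposited values. The log2 ratios had 0.1 FPKM added to both values, which understates the change of low genes. A gene is counted as higher or lower when it differs at least 2-fold on that scale, and the same count over all genes with at least 1 FPKM in a compared group is given beside it. As a check of the treatment, the ABA-induced genes *RAB18* (AT5G66400) and *RD29B* (AT5G52300) together stood at 7081 FPKM in ABA-treated *aph-1* and 8922 FPKM in the ABA-treated wild type, against 6.38 FPKM in untreated *aph-1* and 65.8 FPKM in untreated wild-type seedlings. Markers of leaf mesophyll, guard cells and roots had values above 0 in every group, and the 3 seed storage markers were below 1 FPKM.

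The receptor genes covered a wide range of levels. *PYR1* (AT4G17870, chromosome 4), which was named for its response to the synthetic agonist pyrabactin, was first in all 4 groups. *PYL3* (AT1G73000, chromosome 1) was last or next to last among the 10 in every group and never reached 1 FPKM. The other 9 genes reached 1 FPKM in at least 1 group. Without ABA the order of the first 4 genes was the same in both genotypes, *PYR1*, *PYL4*, *PYL8* and *PYL1*. With ABA it was *PYR1*, *PYL8*, *PYL1*, and *PYL4* was in place 7. Whether neighbours in these orders differ beyond the spread of the libraries could not be assessed. The closest such pair was *PYL8* and *PYL1* in the ABA-treated wild type, both at 46.9 FPKM.

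**Figure D1:**
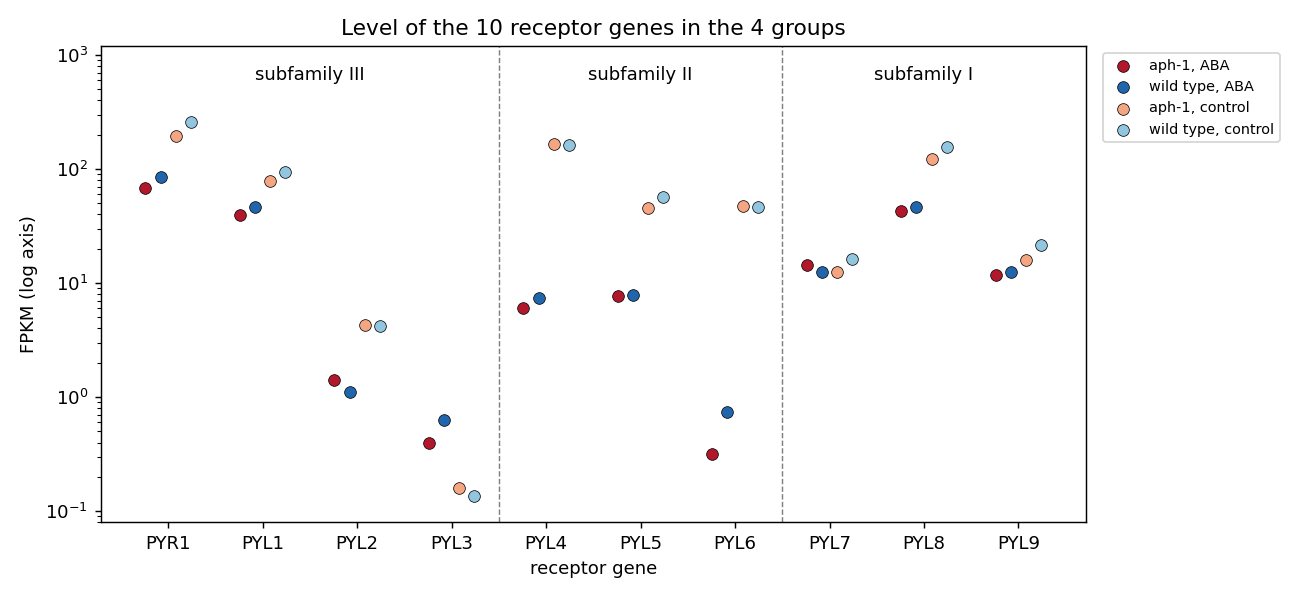
FPKM values (log axis) of the 10 receptor genes, 1 point per group of 3 libraries, with no error bars because a value per library was not used. The *PYL4* points lie at 6.05 and 7.38 FPKM with ABA, far below those without ABA at 165 and 161 FPKM, while the 4 *PYL7* points lie between 12.5 and 16.2 FPKM.

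After ABA the family was lower as a whole in both genotypes. In *aph-1* the 10 genes summed to 193 FPKM with ABA, against 687 FPKM without, which is 3.56-fold lower. In the wild type they summed to 222 FPKM with ABA, against 818 FPKM without, which is 3.68-fold lower. In *aph-1* 6 of the 10 members were at least 2-fold lower with ABA and 0 were higher, with a median log2 ratio of −1.52. Over all genes in *aph-1*, 10.8% were at least 2-fold lower and 12% higher, with a median of −0.02. In the wild type 7 members were lower and 1, *PYL3*, was higher, with a median of −1.67. Over all genes in the wild type, 13% were lower and 11.7% higher, with a median of 0.00 on the log2 scale. The genotypes differ in these counts of lower genes by *PYL1*, which sat at the threshold, 1.98-fold lower in *aph-1* and 2.01-fold lower in the wild type.

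The make-up of the pool also differed between treated and untreated seedlings. Subfamily II made up 7.28% of the summed level in ABA-treated *aph-1* and 37.5% in untreated *aph-1*. In the wild type its share was 7.18% with ABA and 32.3% without. *PYR1*, *PYL1* and *PYL8* together held 78.2% of the summed level with ABA and 57.7% without in *aph-1*, and 80.7% with ABA and 62.5% without in the wild type. In absolute terms *PYR1*, *PYL4* and *PYL8* accounted for most of the lower sum. *PYL4* gave 32.1% of it in *aph-1* and 25.9% in the wild type, *PYR1* gave 25.6% and 29.4% in these genotypes, and *PYL8* gave 16.3% and 18.4%. In whole seedlings, fewer cells that express a gene and less RNA per cell cannot be told apart. The summed markers of 3 tissues were also lower with ABA, and none of these markers was listed at 0. The 3 leaf mesophyll markers summed to 7079 FPKM with ABA and 14084 FPKM without in *aph-1*, and to 4609 FPKM with ABA and 10934 FPKM without in the wild type. The 5 guard cell markers summed to 28.7 FPKM with ABA and 45.7 FPKM without in *aph-1*, and to 27.1 and 51.8 FPKM in the treated and untreated wild type. The 6 root markers summed to 30.8 FPKM with ABA and 45.4 FPKM without in *aph-1*, and to 26.7 and 37.6 FPKM in the treated and untreated wild type. Of the leaf, guard cell and root markers, 1 of 3, 1 of 5 and 0 of 6 were at least 2-fold lower in *aph-1*, and 2 of 3, 2 of 5 and 1 of 6 in the wild type. Not every marker was lower with ABA. In both genotypes 1 of the 5 guard cell markers was higher, with log2 ratios of 0.59 in *aph-1* and 0.19 in the wild type. Of the 6 root markers, 1 was nearly level in *aph-1* (0.02). The part of these tissues in the receptor values was not tested.

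**Figure D2:**
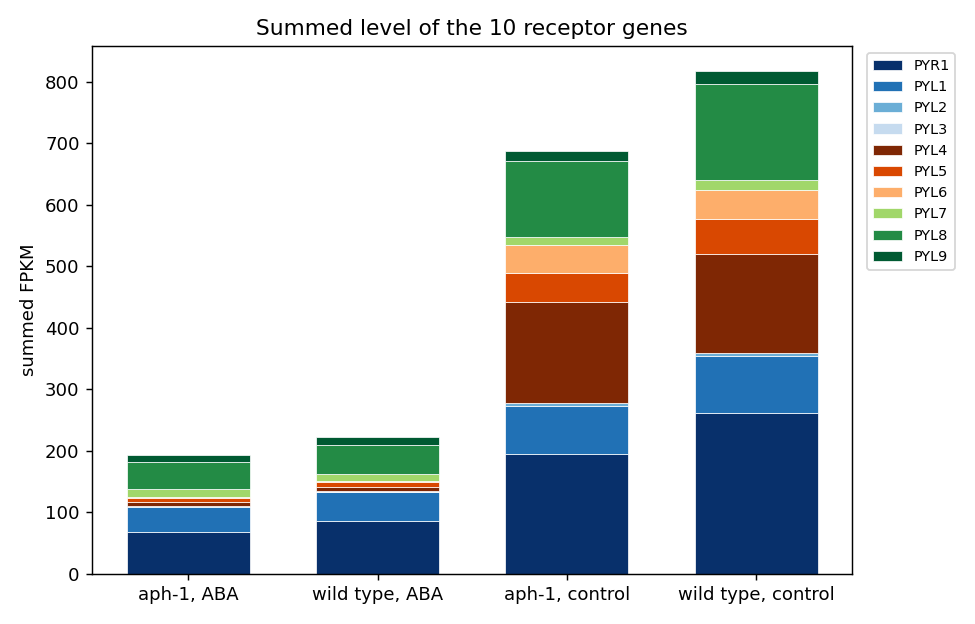
Summed FPKM of the 10 receptor genes in each group, stacked by gene (blue, subfamily III, brown and orange, subfamily II, green, subfamily I). The bars reach 193 and 222 FPKM with ABA and 687 and 818 FPKM without, and the brown and orange blocks shrink to about 7% of the bar with ABA.

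Within the family, subfamily II differed most between treated and untreated seedlings, and all 3 of its members were at least 2-fold lower in both genotypes. *PYL6* (AT2G40330, chromosome 2), whose protein also binds the jasmonate regulator MYC2, was at 0.320 FPKM with ABA in *aph-1*, against 46.9 FPKM without. Wild-type seedlings had 0.742 FPKM with ABA, against 46.0 FPKM without. These are 147-fold and 62.0-fold lower levels, with log2 ratios of −6.81 in *aph-1* and −5.78 in the wild type. Of all 20054 genes compared in *aph-1*, 4 had a log2 ratio at or below that of *PYL6*, and in the wild type it was 17 of 20094. *PYL6* was thus one of the 2 lowest receptor genes with ABA and of intermediate level without it.

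*PYL4* (AT2G38310, chromosome 2), a receptor gene also linked to jasmonate, was at 6.05 FPKM with ABA in *aph-1*, against 165 FPKM without. Wild-type seedlings had 7.38 FPKM with ABA, against 161 FPKM without. Its level was 27.2-fold lower in *aph-1* and 21.9-fold lower in the wild type, with log2 ratios of −4.74 and −4.43. *PYL5* (AT5G05440, chromosome 5) encodes a receptor that can restrain PP2Cs to some degree without ABA. It was at 7.68 FPKM with ABA in *aph-1*, against 45.9 FPKM without, and at 7.83 FPKM with ABA in the wild type, against 57.0 FPKM without. It was 5.98-fold lower in *aph-1* and 7.28-fold lower in the wild type, and of the 3 genes it was the least affected. In the deposited values *PYL4* was therefore below *PYL5* with ABA and above it without ABA, in both genotypes. With ABA the gap was small in the wild type, 7.38 against 7.83 FPKM, and the spread of the libraries is not known.

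In subfamily III the response was smaller and not in 1 direction. *PYR1* was at 68.4 FPKM with ABA in *aph-1*, against 195 FPKM without, and at 85.6 FPKM with ABA in the wild type, against 261 FPKM without. It was 2.85-fold lower in *aph-1* and 3.05-fold lower in the wild type and still had the first place in the family. *PYL1* (AT5G46790, chromosome 5), the closest relative of *PYR1*, was at 39.8 FPKM with ABA in *aph-1*, against 78.7 FPKM without. Wild-type *PYL1* was at 46.9 FPKM with ABA, against 94.0 FPKM without. *PYL2* (AT2G26040, chromosome 2) was a low gene throughout. It was at 1.41 FPKM with ABA in *aph-1*, against 4.25 FPKM without, and at 1.10 FPKM with ABA in the wild type, against 4.23 FPKM without, which is 3.01-fold lower in *aph-1* and 3.83-fold lower in the wild type.

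*PYL3* was the only member whose level was higher with ABA in both genotypes. It was at 0.398 FPKM with ABA in *aph-1*, against 0.159 FPKM without, and at 0.636 FPKM with ABA in the wild type, against 0.135 FPKM without. The log2 ratio was 0.94 in *aph-1*, under the 2-fold threshold, and 1.65 in the wild type, above it. Without a pseudocount the log2 ratios were 1.32 in *aph-1* and 2.23 in the wild type, and with 1 FPKM added they were 0.27 and 0.53. At these levels the call depends on the value that is added, and even with ABA the gene gave 0.206% of the summed receptor level in *aph-1* and 0.286% in the wild type.

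Subfamily I held the gene with the smallest response. *PYL8* (AT5G53160, chromosome 5), known for its role in root ABA sensitivity and lateral root growth, was at 42.8 FPKM with ABA in *aph-1*, against 123 FPKM without. In the wild type it was at 46.9 FPKM with ABA, against 156 FPKM without, and it was 2.88-fold lower in *aph-1* and 3.34-fold lower in the wild type. *PYL8* thus differed from the other genes of its subfamily, which stayed within 2-fold in both genotypes. *PYL9* (AT1G01360, chromosome 1), linked to leaf senescence and drought survival, was at 11.7 FPKM with ABA in *aph-1*, against 15.8 FPKM without, and at 12.6 FPKM with ABA in the wild type, against 21.4 FPKM without. Its log2 ratios were −0.43 in *aph-1* and −0.76 in the wild type. *PYL7* (AT4G01026, chromosome 4) was at 14.4 FPKM with ABA in *aph-1*, against 12.5 FPKM without, and at 12.6 FPKM with ABA in the wild type, against 16.2 FPKM without. Its log2 ratios were 0.20 in *aph-1* and −0.37 in the wild type, so its values differed in opposite directions and by less than 1.5-fold. *PYL7* overlaps the pentatricopeptide repeat gene AT4G01030 in the RefSeq annotation. By the methods the libraries were made with a directional kit, but the sources used here do not say whether the counting kept the strands apart. AT4G01030 was at 0.838 FPKM with ABA and 1.98 FPKM without in *aph-1*, and at 1.18 FPKM with ABA and 1.92 FPKM without in the wild type, below *PYL7* in every group.

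**Figure D3:**
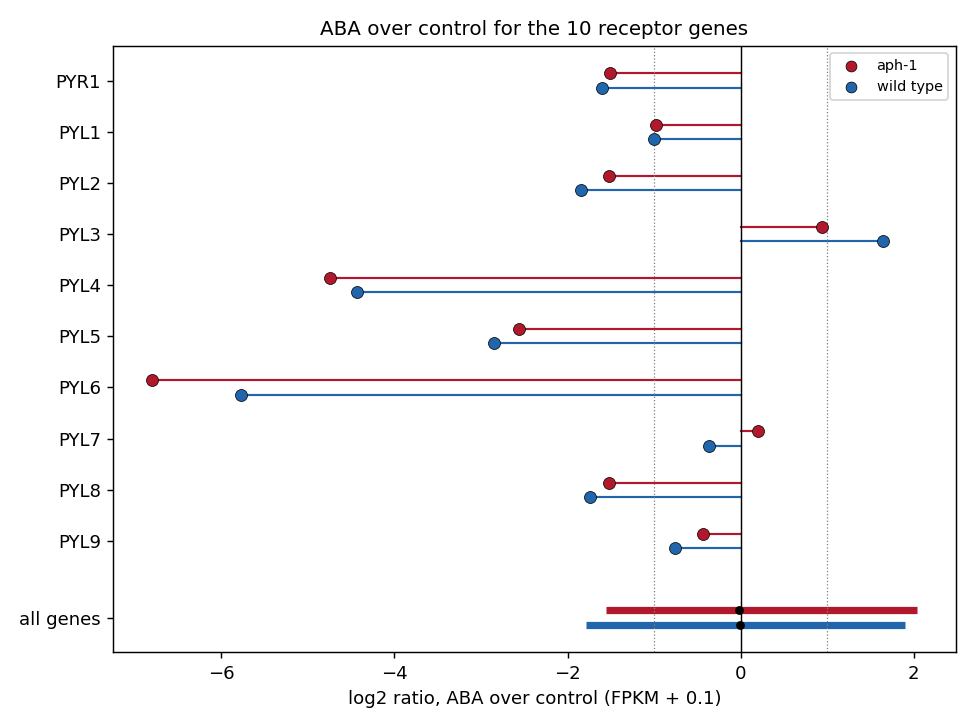
Log2 ratios of ABA to control, with 0.1 FPKM added, for each receptor gene in *aph-1* (red) and the wild type (blue). Dotted lines mark 2-fold, and the bars at the foot span the central 90% of all genes with at least 1 FPKM, with the median as a black point. *PYL4*, *PYL5* and *PYL6* lie to the left of both bars, between −2.56 and −6.81.

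The ABA responses of the genotypes were set side by side. The difference of the log2 ratios, *aph-1* minus wild type, had a median of 0.16 over the 10 members and 0.04 over all 20276 genes. For 7 members it was above 0, from 0.02 for *PYL1* to 0.57 for *PYL7*. With the columns scaled to the same sum it was −0.06 for *PYL1*, so that 6 members were above 0. The difference was below 0 for *PYL4* (−0.31), *PYL3* (−0.70) and *PYL6* (−1.03). The central 90% of all genes lay between −0.44 and 0.59, so *PYL3* and *PYL6* lay below it and the other 8 within it. With 1 FPKM added the difference was −0.43 for *PYL6* and −0.26 for *PYL3*, which was under 1 FPKM in every group.

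Between the untreated genotypes all receptor genes lay within 2-fold, as did most genes. In *aph-1* against the wild type, 0 of the 10 members were at least 2-fold lower and 0 higher, where 0.844% of all genes were lower and 0.207% higher. The 6 members *PYR1*, *PYL1*, *PYL5*, *PYL7*, *PYL8* and *PYL9* had lower values in *aph-1*, by a log2 ratio between −0.26 for *PYL1* and −0.43 for *PYL9*. The median over the members was −0.28, and that over all genes was −0.05. The member median was also below the lower quartile of all genes, −0.22. This was not particular to the receptors. The median was −0.42 over 9 clade A *PP2C* genes and −0.24 over 10 *SnRK2* genes, though it was 0 over 7 genes of ABF and ABI transcription factors. *PYL9* was at 15.8 FPKM in untreated *aph-1* and 21.4 FPKM in wild-type seedlings without ABA, and 7.27% of all genes had a log2 ratio as low or lower. *PYR1* was at 195 FPKM in untreated *aph-1* and 261 FPKM in wild-type seedlings without ABA, and for it the share was 7.77%. No member lay outside the central 90% of all genes, from −0.51 to 0.41. *PYL2*, *PYL4* and *PYL6*, with log2 ratios of 0.01, 0.03 and 0.03, were nearly level between the genotypes, and *PYL3* had 0.14 at a level under 0.2 FPKM. The sum over the 10 genes was 16.0% lower in *aph-1* as deposited, 687 FPKM against 818 FPKM. This came mainly from subfamilies I and III, whose sums were 1.28-fold and 1.29-fold lower. With the columns scaled to the same sum, the difference was smaller, 669 in untreated *aph-1* against 748 in the untreated wild type. The subfamily II sum was 258 FPKM in untreated *aph-1*, against 264 FPKM in untreated wild-type seedlings. The tissue markers did not share 1 direction. In untreated *aph-1* against the wild type, 5 of 5 guard cell markers had lower values, with log2 ratios from −0.39 to −0.11, while 3 of 3 leaf mesophyll markers had higher values, from 0.34 to 0.37. Of the 6 root markers 2 had lower and 4 higher values, from −0.49 to 0.45. With ABA, 2 of 5 guard cell markers (from −0.08 to 0.27), 0 of 3 leaf markers (from 0.61 to 0.83) and 0 of 6 root markers (from 0.01 to 0.39) had lower values in *aph-1*. The part of these tissues in the receptor differences between genotypes was not tested.

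With ABA, 1 of the 10 members, *PYL6*, was at least 2-fold lower in *aph-1* and 0 were higher, set against the wild type, where 0.304% of all genes were lower and 0.438% higher. *PYL6* was at 0.320 FPKM in ABA-treated *aph-1* and 0.742 FPKM in the ABA-treated wild type. The log2 ratio was −1.002, at the threshold. It was −0.98 with the columns scaled to the same sum and −0.40 with 1 FPKM added, and neither reached 2-fold. Among the 1120 genes that had from 0.5 to 1 FPKM in the ABA-treated wild type, 46 (4.11%) were at least 2-fold lower in *aph-1*, so that such differences were more frequent at this level than over all genes. The next lower member was *PYL3*, at 0.398 FPKM in *aph-1* and 0.636 FPKM in the wild type. *PYR1* was at 68.4 FPKM in ABA-treated *aph-1* and 85.6 FPKM in the ABA-treated wild type, a log2 ratio of −0.32, and 4.85% of all genes were as low or lower. *PYL2* had the highest ratio, 0.33, at 1.41 FPKM in *aph-1* and 1.10 FPKM in the wild type. The central range of all genes, taken as for the untreated genotypes, ran from −0.319 to 0.325 with ABA. *PYL6* and *PYL3* (−0.563) lay below it, and *PYR1* (−0.323) and *PYL2* (0.330) were just outside it. *PYL1*, *PYL4* and *PYL7*, with log2 ratios of −0.24, −0.28 and 0.20, lay within it. So did *PYL5*, *PYL8* and *PYL9*, which had lower values in untreated *aph-1* and log2 ratios from −0.13 to −0.03 with ABA. That range is over genes with at least 1 FPKM, and it was wider among low genes. For the genes with 0.5 to 1 FPKM in the ABA-treated wild type it ran from −0.88 to 0.63, with *PYL3* inside and *PYL6* below. For those with 1 to 2 FPKM it ran from −0.59 to 0.52, with *PYL2* inside. The median over the members was −0.18 and that over all genes −0.01.

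**Figure D4:**
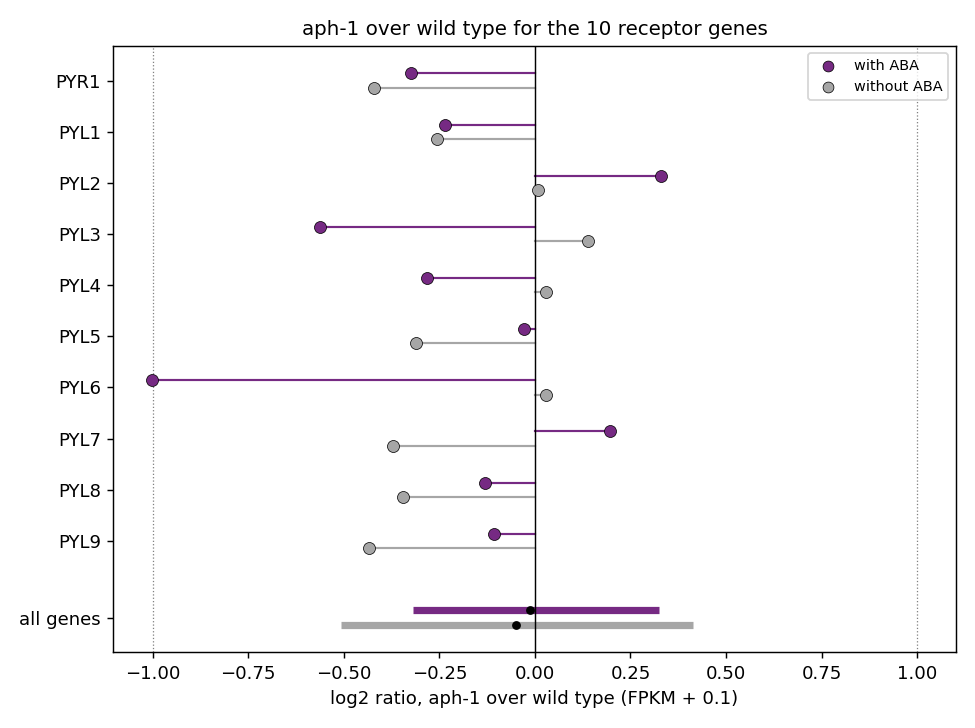
Log2 ratios of *aph-1* to the wild type, with 0.1 FPKM added, for each receptor gene with ABA (purple) and without (grey). Dotted lines mark 2-fold, and the bars at the foot span the central 90% of all genes, with the median as a black point. *PYL6* with ABA lies at −1.002, and the other 9 members lie within 2-fold in both conditions.

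The remaining receptor genes were all below 1 FPKM in every group. *PYL10* (AT4G27920) was at 0.148 FPKM with ABA in *aph-1*, against 0.245 FPKM without, and at 0.135 FPKM with ABA in the wild type, against 0.587 FPKM without. *PYL11* (AT5G45860) and *PYL12* (AT5G45870) lie next to each other on chromosome 5. *PYL11* was at 0.496 FPKM with ABA in *aph-1*, against 0.554 FPKM without, and at 0.137 FPKM with ABA in the wild type, against 0.485 FPKM without. *PYL12* was at 0.179 FPKM with ABA in *aph-1*, against 0.490 FPKM without, and at 0.212 FPKM with ABA in the wild type, against 0.599 FPKM without. *PYL13* (AT4G18620) is listed at 0 in 3 groups and at 0.0544 FPKM in ABA-treated *aph-1*. Together the 4 genes added between 0.484 and 1.67 FPKM to the sum of the 10 members.

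The components on which the receptors act went the other way with ABA. All 9 clade A *PP2C* genes were at least 2-fold higher in both genotypes, where 12% of all genes in *aph-1* and 11.7% in the wild type were higher. The median log2 ratios of the *PP2C* genes were 4.94 in *aph-1* and 4.77 in the wild type. The largest ratios in the wild type were those of *HAI3* (AT2G29380), 7.09, and *HAI2* (AT1G07430), 7.01, and the smallest those of *HAB1* (AT1G72770), 3.14, and *HAB2* (AT1G17550), 1.83. Summed over the 9 genes, *PP2C* levels were 1626 FPKM with ABA and 90.1 FPKM without in *aph-1*, and 1852 FPKM with ABA and 103 FPKM without in the wild type. The ratio of the receptor sum to the *PP2C* sum was therefore 0.119 with ABA and 7.62 without in *aph-1*, and 0.120 with ABA and 7.94 without in the wild type. It was thus below 1 with ABA and above 1 without, in both genotypes. These are ratios of transcript levels per length and not of proteins.

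Further down the pathway the responses were mixed or upward. Of the 10 *SnRK2* kinase genes, 3 were at least 2-fold higher and 2 lower with ABA in *aph-1*, where 12% of all genes were higher and 10.8% lower. In the wild type 3 were higher and 1 lower, where 11.7% of all genes were higher and 13% lower. Among 10 genes, 1 or 2 lower ones are not far from these shares. The *SnRK2* medians were 0.62 in *aph-1* and 0.55 in the wild type on the log2 scale. *SNRK2.7* (AT4G40010) had the largest log2 ratio in the wild type, 3.47, followed by *SNRK2.9* (AT2G23030) with 1.62, and *SNRK2.8* (AT1G78290) and *SNRK2.5* (AT5G63650) had the smallest, −0.71 and −1.36. Among 7 genes of ABF and ABI transcription factors, 5 were at least 2-fold higher and 0 lower in each genotype, with medians of 1.11 in *aph-1* and 1.15 in the wild type. *ABI5* (AT2G36270) and *ABF3* (AT4G34000) had the largest log2 ratios in the wild type, 2.82 and 2.72, while *ABI3* (AT3G24650) was under 0.1 FPKM in every group and *ABI4* (AT2G40220) is listed at 0. Among genes of MYB factors known to bind the PYL8 protein, *MYB44* (AT5G67300) and *MYB73* (AT4G37260) were higher with ABA in both genotypes, with log2 ratios of 1.84 and 1.52 in *aph-1* and 1.54 and 1.42 in the wild type. *MYB77* (AT3G50060), the third of them, had −0.17 in *aph-1* and −0.26 in the wild type. The ubiquitin ligase genes *PUB22* (AT3G52450) and *PUB23* (AT2G35930), whose products target PYL9, stayed within 2-fold in both genotypes, with log2 ratios between −0.93 and −0.53. Of 5 genes often used as stable references, 0 differed 2-fold with ABA, with log2 ratios from −0.81 to 0.61 in *aph-1* and from −0.67 to 0.75 in the wild type.

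**Figure D5:**
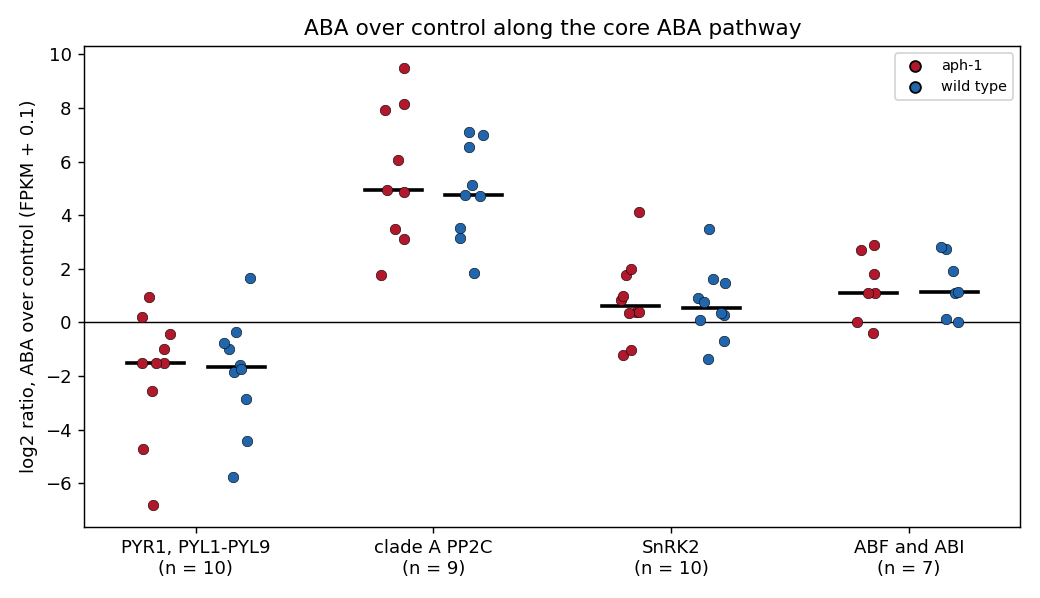
Log2 ratios of ABA to control, with 0.1 FPKM added, for receptor, clade A *PP2C*, *SnRK2* and *ABF*/*ABI* genes in *aph-1* (red) and the wild type (blue). Each point is a gene and each black line a median, which is −1.52 and −1.67 for the receptors and 4.94 and 4.77 for the *PP2C* genes in *aph-1* and the wild type.

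The members were also compared by the shape of their profile over the 4 groups. The measure was the Euclidean distance between log2 values, with 0.1 FPKM added, that were centred on each gene's mean. The closest pair within the family was *PYR1* and *PYL8*, at a distance of 0.16, although they belong to different subfamilies. *PYL2* and *PYL8* followed at 0.41 and *PYL1* and *PYL9* at 0.43. Among 20276 genes with at least 1 FPKM in a group, the profile closest to *PYL6* was that of *CRK30* (AT4G11460), a cysteine-rich receptor-like kinase gene, at 0.17, and the next was that of *RL3* (AT4G36570), a RAD-like gene, at 0.30. The profiles closest to *PYL4* were those of AT1G66940, a gene related to protein kinases, at 0.15, and AT1G29430, a SAUR-like auxin-responsive gene, at 0.17. For *PYL5* they were those of AT1G12030 and AT3G50560, both at 0.07. The closest profiles were AT5G52020 and AT2G29170 for *PYR1* (0.07 and 0.11), *NUDT17* (AT2G01670) and *SFH3* (AT2G21540) for *PYL1* (0.03 and 0.04), AT2G23672 and AT5G24580 for *PYL2* (0.02 and 0.06), and *ENH1* (AT5G17170) and AT2G44380 for *PYL8* (0.03 and 0.05). For *PYL3*, itself under 1 FPKM, they were AT5G46730, a glycine-rich protein gene (0.10), and AT5G39330 (0.15). Each profile has only 4 points, and 1 value stands for a group. For genes near 0 the distance depends on the added 0.1 FPKM, and no other added value was tried for it. With ABA *CRK30* was at 0.0136 FPKM in *aph-1* and 0.151 FPKM in the wild type, against 0.320 and 0.742 FPKM for *PYL6*.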

How the data were processed

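RNA was sequenced from 12 libraries of whole seedlings, 3 in each of 4 groups. By the methods, the authors used Trimmomatic for trimming, HISAT for mapping to TAIR10 and HTSeq for counts per gene, and called differential genes with edgeR. The deposited table has 1 value per gene and group, which was taken as FPKM from its label, which names Cuffdiff, and from the size of the column sums. The sources used here do not say how the authors joined the 3 libraries of a group into 1 FPKM value. The 4 columns of log2 ratios and 4 columns of yes or no calls hold the authors' own comparisons and were not used.

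Ratios were computed from the FPKM values with 0.1 FPKM added, with a threshold of 2-fold, in 4 comparisons (ABA over control in each genotype, *aph-1* over wild type in each treatment). With 1 value per group no model could be fitted and no p-value is given. The depth per library is unknown, so counting intervals could not be given. Alternatives were no pseudocount, a pseudocount of 1 FPKM, columns scaled to the same sum, centring of the ratios on the all-gene median, thresholds of 1.5-fold and 3-fold, a minimum of 1 FPKM and the sum over all 14 receptor genes.

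Named genes were the members, *PYL10* to *PYL13*, *APH*, the 2 highest and 2 lowest genes of each list by log2 ratio with ABA in the wild type, and the 2 genes with the profile closest to each member that ABA changed 2-fold in the wild type. For short lists and the marker lists only sums or ranges are given. The members and lists were chosen with earlier results of these data known. Names were checked in a RefSeq gene table (TAIR10.1), which holds 32815 of the 33559 identifiers. Since its build differs in name from that of the authors, its coordinates served only for chromosomes, order and overlap. A list of receptor recruitment and turnover genes was reduced to *PUB22* and *PUB23*, because the names of its other 10 genes could not be matched. No sequences are printed, as no sequence table was used here. The ratio, count and distance functions were tested on simulated data. Python 3.11.15, numpy 2.4.6, pandas 2.3.3 and matplotlib 3.10.9 were used.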

Additional observations from a re-analysis of the deposited data

Results flagged for a closer look

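For *PYL7* the ABA response had opposite signs in the genotypes, with log2 ratios of 0.20 in *aph-1* and −0.37 in the wild type, a difference of 0.57. The same values give opposite genotype differences, 0.20 with ABA and −0.37 without, again 0.57 apart. For *PYL3* the log2 ratio of *aph-1* to the wild type was −0.56 with ABA and 0.14 without, a difference of −0.70 at levels under 1 FPKM. With 1 value per group none of these differences was tested. The share of all genes with a difference of ABA responses at or above that of *PYL7* was 5.44%, while for *PYL3* the share at or below was 1.02%. Both shares are over genes with at least 1 FPKM in a group, a level that *PYL3* never reached. With 1 FPKM added the *PYL3* difference was −0.26.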

How the results depend on the processing

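No paired analysis was possible because the table has 1 value per group, and for the same reason no replicate could be left out. Scaling the columns to the same sum moved the log2 ratios by −0.12 (ABA over control in *aph-1*), −0.03 (ABA over control in the wild type), 0.01 (*aph-1* over wild type with ABA) and 0.09 (without ABA), and neither this nor centring changed the sign of any member's ratio in the 4 comparisons. With a 3-fold threshold, 3 members were past it for ABA over control in *aph-1*, *PYL4*, *PYL5* and *PYL6*. *PYR1*, *PYL2* and *PYL8* fell just short of it in *aph-1*, with log2 ratios of −1.51, −1.52 and −1.52. In the wild type 7 members were past it, 6 lower and 1 higher. The share over all genes was not computed at 3-fold. For *aph-1* over wild type with ABA, the count of 1 became 0 with 1 FPKM added, with the columns scaled, with centring, at 3-fold and with members under 1 FPKM left out. The summed levels moved by less than 1.5-fold in all alternatives run. Their ratios to the *PP2C* sums could not be moved by scaling the columns, which multiplies both sums by the same factor. The only other alternative for these ratios added the remaining receptor genes, at 0.484 to 1.67 FPKM per group. It could hardly move them, so these alternatives say little about how firm the ratios are. For single members, 13 of 200 alternative values crossed 2-fold or moved by over 1.5-fold, all of them for *PYL1*, *PYL3* or *PYL6*. In these 200 values 1 changed sign, the difference between the genotypes' ABA ratios for *PYL1*, which was −0.06 with the columns scaled and 0.02 as deposited.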

Other observations

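Genes next to the receptors in the RefSeq order, chosen after their values were seen, did not share 1 direction with ABA. *MYC4* (AT4G17880), a jasmonate-related transcription factor gene next to *PYR1*, had log2 ratios of ABA to control of −1.29 in *aph-1* and −1.05 in the wild type. AT2G38300, next to *PYL4*, had −1.53 in *aph-1* and −1.67 in the wild type. *DREB2C* (AT2G40340), next to *PYL6*, was higher with ABA, with log2 ratios of 2.07 in *aph-1* and 1.66 in the wild type. *TBL33* (AT2G40320), on the other side of *PYL6*, had −0.01 in *aph-1* and 0.00 in the wild type.

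A further 36 genes carry the polyketide cyclase superfamily description that some receptor genes also have, a list likewise chosen after values were seen. With at least 1 FPKM in a compared group, 28 of them could be counted in *aph-1*. With ABA, 7 of these 28 were lower and 6 higher by at least 2-fold, and the median log2 ratio was 0.20. Over all genes in *aph-1*, the shares were 10.8% lower and 12% higher. In the wild type 6 of 27 were lower and 5 higher, with a median of −0.09, where 13% of all genes were lower and 11.7% higher.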
